A study of Homo sapiens with 6 samples.

Results

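The genes described here are 10 that make, carry, sense or destroy retinoic acid: the retinoic acid receptors RARA, RARB and RARG, their partner RXRA, the hydroxylases CYP26A1 and CYP26B1, the retinaldehyde reductase DHRS3, the carrier CRABP2, and the retinaldehyde dehydrogenases ALDH1A1 and ALDH1A3. All array probes annotated with one of these symbols were taken, which gave 16 probes, and each probe was described apart. The array held 43317 annotated genes on 58201 probes after controls were set aside. Of the 16 probes, 13 probes of 9 genes cleared the background of both arrays in 1 population or more and were tested. The remaining 3 were the single CYP26B1 probe and a pair of RARB probes.

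The arrays measured total RNA of BT474, a luminal breast cancer line with estrogen receptor and amplified HER2. The 3 populations were compared, each on 2 one-color arrays named A and B. Control cells (MOCK) carried empty pcDNA3.1, BT474-Var1 cells carried pcDNA3.1 with variant 1 of the long noncoding RNA NR2F1-AS1 (the long form), and BT474-Var4 cells carried it with variant 4 (the short form). The comparisons asked what gain of each variant did to the transcriptome of BT474 cells. By the methods of the study all populations were nucleofected, passed through antibiotic selection and then kept without antibiotic in RPMI-1640 with serum. The Control shared these steps, but the paper describes the variant populations as shrinking to few surviving cells that later grew as colonies. Outgrowth of survivors thus cannot be told apart from either variant. The methods name pcDNA3.1-P2A-eGFP as the backbone of variant 4 and pcDNA3.1/Hygro(+) as that of variant 1, with both as empty controls, and which empty plasmid the Control arrays carried is not given in the sources used here. The plasmid backbone therefore cannot be told apart from the variant. Whether a population was 1 clone or a pool, and whether A and B were separate cultures, is not given in the sources used here either, so the p-values measure the spread between these arrays, which may be technical.

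Retinol taken up by cells is oxidized to retinaldehyde and then, irreversibly, by the ALDH1A enzymes to retinoic acid, while DHRS3 turns retinaldehyde back into retinol. CRABP2 hands retinoic acid to nuclear receptors, which bind DNA as pairs of a RAR and an RXR on spaced repeats of a short motif, and the CYP26 enzymes oxidize retinoic acid for removal. Several genes of the pathway, RARB, CYP26A1 and DHRS3 among them, are well known targets of the receptors, and retinoic acid slows the growth of many luminal breast cancer cells.

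The probes that the main differences rest on are shown first, by the first 30 of their 60 bases, read 5′ to 3′ in the sense of the transcript. Coordinates are those of the array files (hg19). The CYP26A1 probe A_23_P138655 lay at chr10:94837013-94837072, plus strand, from base 1616 of its transcript. The DHRS3 probe A_23_P33759 lay at chr1:12628110-12628169, minus strand, from base 1491. The ALDH1A3 probe A_23_P205959 lay at chr15:101456503-101456562, plus strand, from base 3279. The CRABP2 probe A_23_P115064 lay at chr1:156669579-156669638, minus strand, from base 817.
CYP26A1 A_23_P138655: tgtggacaatctccctgcaagattcaccca
DHRS3 A_23_P33759: aggcaggaaaacagccagaagccaccttga
ALDH1A3 A_23_P205959: atatagacactaaccttgatagtgatacgt
CRABP2 A_23_P115064: ccctacaccaacaaagaggaatggctgcaa

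The promoters of the members were searched for the repeats that RAR and RXR pairs bind. RefSeq promoter windows (GRCh38.p14, 250 bases before to 50 after a start site) matched all 10 members, with 19 windows in all. A direct repeat of the short nuclear receptor motif spaced by 5 bases (DR5), searched on both strands, was present in 2 of the 19, and in 31 of all 35116 windows (0.0883%). Repeats spaced by 1 base (DR1, 0.131% of all windows) or by 2 bases (DR2, 0.0399%) were found in 0 of the member windows. In RARB the DR5 stood 53 to 37 bases before the start site, on the strand of the gene, in 1 of its 4 windows. In CYP26A1 it stood 90 to 74 bases before the start site, on the opposite strand, in 1 of its 2 windows. The 130 bases before each of these start sites are printed below with the repeat in capitals, from chr3:25428133-25428262 for RARB and chr10:93073763-93073892 for CYP26A1, both on the plus strand. These matches describe the letters of the windows, not bound sites.
RARB: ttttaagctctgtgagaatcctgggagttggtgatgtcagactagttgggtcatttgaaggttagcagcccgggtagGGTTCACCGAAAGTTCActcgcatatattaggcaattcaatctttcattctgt
CYP26A1: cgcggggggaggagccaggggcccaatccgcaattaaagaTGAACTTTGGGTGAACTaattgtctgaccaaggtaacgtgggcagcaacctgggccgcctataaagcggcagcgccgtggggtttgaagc

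One RARB probe reads this very stretch. The 60 bases of A_33_P3655646 (hg19 chr3:25469694-25469753, plus strand, designed on a transcript other than the RefSeq RARB messages) matched the window from 60 bases to 1 base before the start site, so that its first 30 bases hold the whole repeat, again in capitals.
RARB A_33_P3655646: cgggtagGGTTCACCGAAAGTTCActcgca

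**Figure D1:**
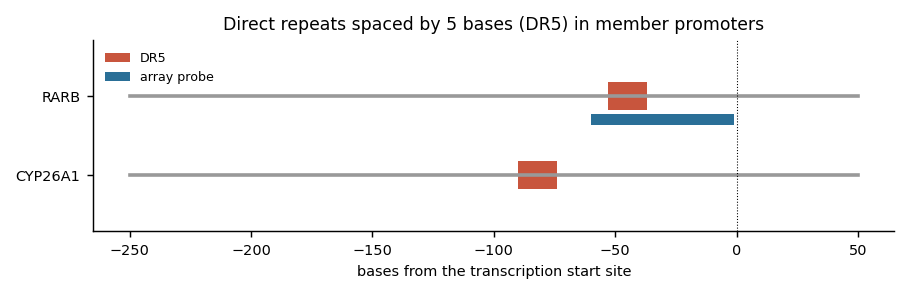
Position of the DR5 repeats (red) in the RefSeq promoter windows of RARB and CYP26A1 (grey, 250 bases before to 50 after the start site, dotted line), in bases from the start site. The blue bar marks array probe A_33_P3655646, which spans the RARB repeat at -53 to -37.

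All values below are log2 intensities relative to the 75th percentile of the same array, so 0 is the intensity at that percentile, and levels are compared between populations only, never between probes. Across the arrays 47.6% to 57.5% of probes were well above background, 0 spots were saturated, and replicates correlated at 0.993 to 0.996 with an SD of 0.20 to 0.25 between them over all tested probes. With 2 arrays per population, the number of arrays limits the precision. The labels were borne out by the transfected RNA: NR2F1-AS1 probe A_19_P00320140, which was not well above background in Control or BT474-Var4 (the other 3 were on 1 of the 2 Control arrays), exceeded Control at least 15.1-fold in BT474-Var1, and probe A_24_P51080 was higher by 6.92 on the log2 scale in BT474-Var4. All 10 luminal markers were well above background on all 6 arrays, while KRT5, ACTA2, COL3A1, LUM, CLDN5 and TEK were on 0. The fibroblast marker list moved with BT474-Var4: the summed linear level of its 3 tested markers of 5 was 3.08 to 3.13 in Control, 3.63 to 3.75 in BT474-Var1 and 5.47 to 5.67 in BT474-Var4, and DCN was well above background on both BT474-Var4 arrays and on no other. The sums of other lists moved with BT474-Var1, though a sum follows its brightest genes. The summed level of the 10 luminal markers was 2146 to 2181 in Control, 2696 to 2738 in BT474-Var1 and 2095 to 2114 in BT474-Var4. Of these 10 markers, 4 rose and 3 fell in BT474-Var1, and 0 rose and 2 fell in BT474-Var4, with 0 changes of 2-fold or more. The summed level of 2 tested endothelial markers of 5 was 2.56 to 2.77, 1.497 to 1.75 and 2.42 to 2.55, and that of 2 tested basal markers of 5 was 0.120, 0.149 to 0.212 and 0.112 to 0.129. In each variant 1 of these 2 basal markers rose 2-fold or more against Control. The 3 tested leukocyte markers of 5 summed to between 1.09 and 1.26 on every array. The part of these markers in the differences below was not tested. In such bulk RNA, fewer cells of a kind and less RNA per cell cannot be told apart. All 6 arrays were on 1 slide, where the BT474-Var1 pair lay in another row than the other 4. The Control pair lay in other columns than the arrays of both variants. Position on the slide thus cannot be told apart from the population in any of the comparisons.

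Some retinoid genes moved the same way in both transfected populations and others did not. In BT474-Var1 1 probe of the carrier CRABP2 rose by 1.00 and DHRS3 by 0.31 on the log2 scale, and CYP26A1 and 1 probe each of ALDH1A3, ALDH1A1 and RARA fell. In BT474-Var4 DHRS3 rose 2.84-fold and the same ALDH1A3 probe 2.24-fold, RARG and the same CRABP2 probe rose by less, and the same RARA probe fell. DHRS3, 1 probe of CRABP2 and 1 of RARA thus passed in the same direction in both, and 1 probe of ALDH1A3 in opposite directions. The smaller change of DHRS3, CRABP2 and ALDH1A3, and both of RARA, lost the call without certain single arrays. Between the 2 populations this ALDH1A3 probe, CYP26A1 and DHRS3 differed most, each higher in BT474-Var4 by 2.29-fold to 2.98-fold. A difference passed where limma's adjusted p, over all 31858 tested probes, was under 0.05.

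By count, 6 of the 13 tested member probes passed in BT474-Var1 against Control, 2 higher and 4 lower, beside 34.4% of all tested probes (14.1% higher and 20.3% lower). In BT474-Var4 against Control 5 passed, 4 higher and 1 lower, beside 24.2% of all tested probes (9.87% higher and 14.3% lower). In BT474-Var4 against BT474-Var1 7 passed, 6 higher and 1 lower, beside 41.2% of all tested probes (20.4% higher and 20.8% lower). The rises that were also 2-fold or more numbered 0, 2 and 3 in these comparisons, beside 2.78%, 1.6% and 2.27% of all tested probes, and 0 member probes fell by that much, beside 1.16%, 1.57% and 4.6%. In either direction 3.94%, 3.17% and 6.86% of all tested probes changed 2-fold or more. The median log2 fold change of the 13 was -0.16, 0.29 and 0.19, against -0.04, -0.08 and -0.03 over all tested probes. The comparisons of each variant with Control share the Control arrays, and those of BT474-Var4 with BT474-Var1 share arrays with both, so their values stand side by side and are not independent. The arrays of the 2 populations compared did not overlap for 10 of the 13 probes in BT474-Var1 against Control (2 higher and 8 lower), beside 71.8% of all tested probes (31.2% higher and 40.6% lower). They did not for 11 in BT474-Var4 against Control (7 higher and 4 lower), beside 68.7% (26% and 42.7%), nor for 10 in BT474-Var4 against BT474-Var1 (8 higher and 2 lower), beside 74.7% (35.4% and 39.3%). Groups of 2 that do not overlap are thus the rule on these arrays. As 3 of the 16 member probes were left out for low signal, these counts do not cover all member probes.

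**Figure D2:**
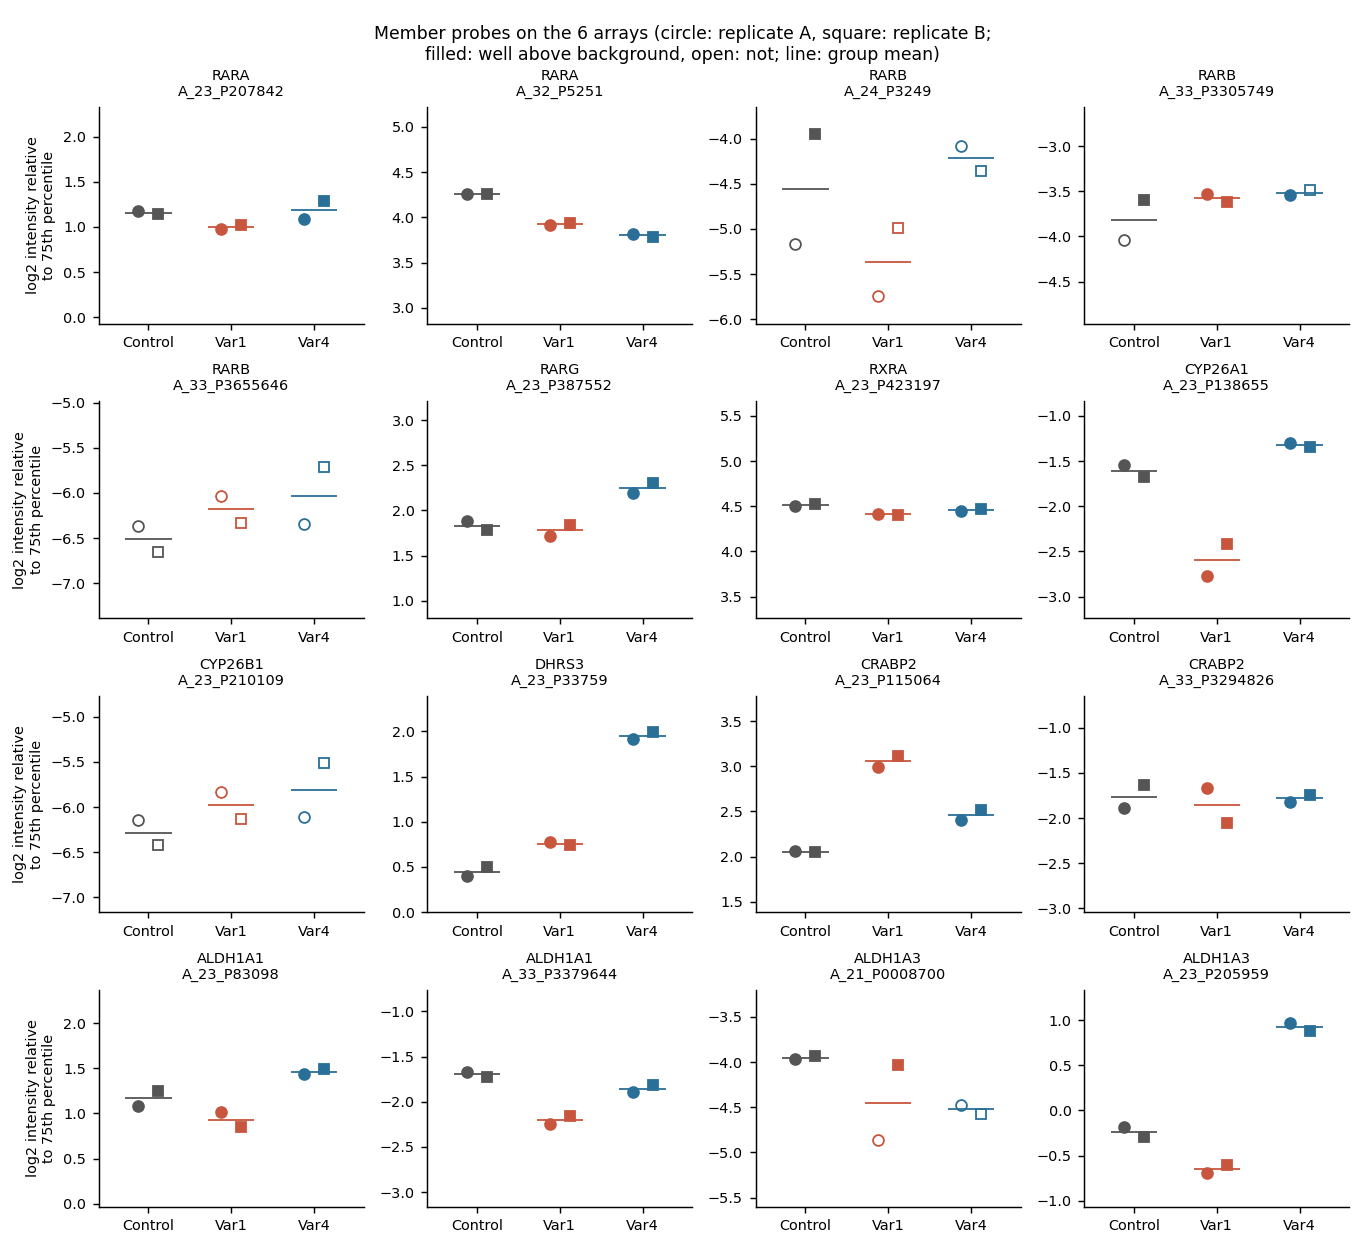
Log2 intensity relative to the 75th percentile of the array for the 16 member probes on each array of Control, BT474-Var1 and BT474-Var4, with circles for replicate A, squares for replicate B and a line at the group mean of 2 arrays. Open symbols were not well above background. Each panel has its own axis of equal or larger span than 2 log2 units. DHRS3 and ALDH1A3 A_23_P205959 stand highest in BT474-Var4, CRABP2 A_23_P115064 in BT474-Var1, and RXRA is nearly flat.

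**Figure D3:**
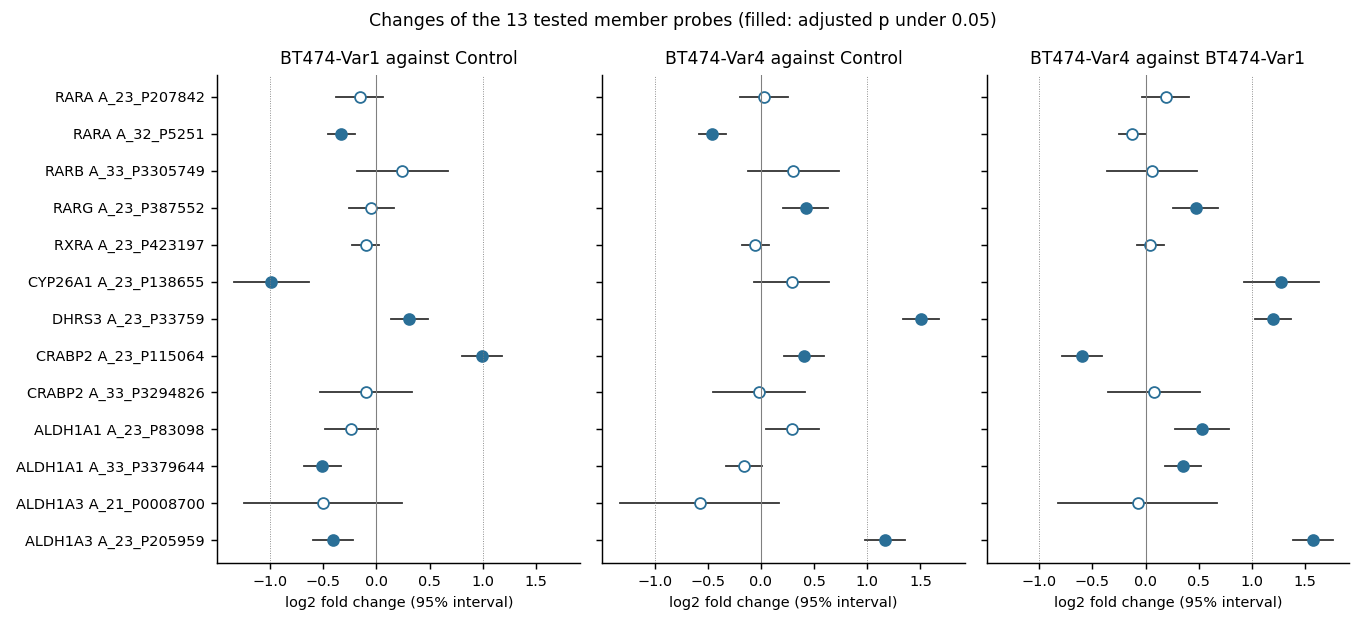
Log2 fold change with its 95% interval for the 13 tested member probes in the 3 comparisons, filled where limma's adjusted p was under 0.05. Dotted lines mark 2-fold. Passing changes run from -0.99 for CYP26A1 in BT474-Var1 to 1.57 for ALDH1A3 in BT474-Var4 against BT474-Var1.

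Among the receptors, RARA, the main retinoic acid receptor of luminal cells, was read by a pair of probes that did not behave alike. Probe A_32_P5251 (chr17:38512928-38512987) read 4.25 and 4.26 in Control, 3.92 and 3.94 in BT474-Var1 and 3.82 and 3.78 in BT474-Var4. Both transfected populations lay below both Control arrays without overlap. The probe fell by 0.33 in BT474-Var1 (SE 0.05, adjusted p = 0.0108) and by 0.46 in BT474-Var4 (SE 0.05, adjusted p = 0.0083), and the 2 populations did not differ past the threshold (adjusted p = 0.0966). Without Control A, Control B or BT474-Var1 A the first call was lost (adjusted p = 0.0621, 0.0623 and 0.0527), and without Control A or B the second was (0.0576 and 0.0589). Under quantile normalization the fall in BT474-Var1 was 0.21 on the log2 scale and still passed. The 2 transfected populations would differ past the threshold under it too (-0.22, limma adjusted p = 0.0256). They would also in limma with trend and robust estimation (adjusted p = 0.0242) and in the one-way analysis of variance (adjusted p = 0.0208).

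Probe A_23_P207842 lies further along the same transcript (chr17:38513174-38513233, from base 2755 against base 2509). It read 1.17 and 1.14 in Control, 0.98 and 1.02 in BT474-Var1 and 1.08 and 1.28 in BT474-Var4. BT474-Var1 lay below Control on both arrays, and BT474-Var4 overlapped it. Neither difference from Control passed: -0.16 in BT474-Var1 (95% interval -0.38 to 0.06, adjusted p = 0.210) and 0.03 in BT474-Var4 (-0.19 to 0.25, adjusted p = 0.828). The fall of RARA therefore rested on 1 of its 2 probes, and for BT474-Var4 the intervals of the 2 probes do not overlap.

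RARG, the receptor form typical of epithelia, was read by 1 probe, A_23_P387552 (chr12:53604565-53604624, minus strand). It read 1.88 and 1.78 in Control, 1.72 and 1.84 in BT474-Var1 and 2.20 and 2.30 in BT474-Var4. The BT474-Var4 arrays stood above the other 4, among which Control and BT474-Var1 overlapped. RARG rose by 0.42 in BT474-Var4 (SE 0.08, adjusted p = 0.0274), a 1.34-fold difference, and was 0.47 higher there than in BT474-Var1 (adjusted p = 0.0129). In BT474-Var1 it differed from Control by -0.05 (-0.26 to 0.16, adjusted p = 0.670). The call against Control was lost without each of the 4 arrays compared in turn (Control A, Control B, BT474-Var4 A, BT474-Var4 B; adjusted p = 0.0693 to 0.122) and in the one-way analysis of variance (0.0634), and the call against BT474-Var1 without BT474-Var1 A (0.0549) or BT474-Var4 B (0.0585).

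RXRA, the partner with which each RAR binds DNA, hardly varied. Its probe A_23_P423197 (chr9:137331772-137331831) read 4.51 and 4.52 in Control, 4.42 and 4.41 in BT474-Var1 and 4.44 and 4.47 in BT474-Var4. Both transfected populations lay slightly below both Control arrays. The differences of -0.10 (95% interval -0.23 to 0.03, adjusted p = 0.174) and -0.06 (-0.18 to 0.07, adjusted p = 0.438) did not pass. The first would pass with normexp background correction (-0.16, adjusted p = 0.0146) and in the one-way analysis of variance (-0.10, adjusted p = 0.0304), and its sign turned under quantile normalization.

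RARB, a receptor that retinoic acid itself induces and that many breast cancers have silenced, was at the edge of detection. Probe A_33_P3305749 (chr3:25636109-25636168) read -4.04 and -3.59 in Control, -3.53 and -3.62 in BT474-Var1 and -3.54 and -3.49 in BT474-Var4. It was well above background on 1, 2 and 1 of these arrays, with the transfected populations within or just above the Control range. The differences of 0.24 (-0.18 to 0.67, adjusted p = 0.300) and 0.30 (-0.12 to 0.73, adjusted p = 0.234) did not pass.

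The other RARB probes gave no measured level. A_24_P3249 (chr3:25638622-25638681) read -5.17 and -3.95 in Control, -5.75 and -4.99 in BT474-Var1 and -4.08 and -4.36 in BT474-Var4, and was well above background on 1 Control array alone. A_33_P3655646, the probe over the DR5 repeat printed above, read -6.37 and -6.65 in Control, -6.03 and -6.33 in BT474-Var1 and -6.34 and -5.71 in BT474-Var4, and was well above background on 0 of 6 arrays. RNA covering the bases just before this RARB start site was thus not detectable on these arrays in any population.

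Of the enzymes that make retinoic acid, ALDH1A3 differed most between the populations. Its main probe A_23_P205959, whose sequence stands above, read -0.19 and -0.30 in Control, -0.70 and -0.61 in BT474-Var1 and 0.96 and 0.88 in BT474-Var4. The 3 populations did not overlap, with BT474-Var1 lowest and BT474-Var4 highest. ALDH1A3 rose by 1.16 in BT474-Var4 (SE 0.07, adjusted p = 0.0037), or 2.24-fold, and was 2.98-fold higher there than in BT474-Var1 (1.57, SE 0.07, adjusted p = 0.0012). These 2 calls held without any single array. In BT474-Var1 it fell by 0.41 (SE 0.07, adjusted p = 0.0160). This call failed without Control A, Control B, BT474-Var1 A or BT474-Var1 B (adjusted p = 0.0501 to 0.0790). With normexp background correction the change was -0.27.

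A further probe carries the ALDH1A3 symbol but was designed on a noncoding transcript (A_21_P0008700, chr15:101401818-101401877). It read -3.96 and -3.94 in Control, -4.87 and -4.04 in BT474-Var1 and -4.47 and -4.58 in BT474-Var4, and was well above background on 2, 1 and 0 of these arrays. Both transfected populations lay below Control, but neither difference passed (-0.50, adjusted p = 0.234, and -0.57, adjusted p = 0.204). It therefore did not show the rise in BT474-Var4 that the main probe did.

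ALDH1A1, the family member best known as a marker of breast stem-like cells, was read by a pair of probes in different parts of its transcript. Probe A_23_P83098 (chr9:75516136-75516195, minus strand, from base 1751) read 1.08 and 1.25 in Control, 1.02 and 0.84 in BT474-Var1 and 1.44 and 1.49 in BT474-Var4. The populations did not overlap, in the order BT474-Var1, Control, BT474-Var4. Neither neighbour in that order differed past the threshold (-0.24, adjusted p = 0.125, and 0.30, adjusted p = 0.0882). Both differences would pass with normexp (adjusted p = 0.0388 and 0.0136) and in limma with trend and robust estimation (0.0210 and 0.0070). BT474-Var4 was 1.45-fold higher than BT474-Var1 (0.53, SE 0.09, adjusted p = 0.0147). That call was lost without BT474-Var1 B, BT474-Var4 A or BT474-Var4 B (0.0563, 0.0550 and 0.0675).

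Probe A_33_P3379644 (chr9:75540401-75540460, from base 889) read -1.67 and -1.72 in Control, -2.25 and -2.16 in BT474-Var1 and -1.90 and -1.82 in BT474-Var4. Here BT474-Var1 was again lowest, and BT474-Var4 lay below Control, the opposite side from the first probe. The fall of 0.51 in BT474-Var1 passed (SE 0.06, adjusted p = 0.0081), that of 0.16 in BT474-Var4 did not (adjusted p = 0.144), and BT474-Var4 was 0.35 higher than BT474-Var1 (adjusted p = 0.0157). With normexp both calls were lost (-0.11, adjusted p = 0.0538, and 0.05, adjusted p = 0.336). The first was also lost without Control A (0.0526), and the second without BT474-Var1 A (0.0660) or BT474-Var4 B (0.0680). Both probes thus placed ALDH1A1 lower in BT474-Var1 than in BT474-Var4, and differed on where Control stood.

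DHRS3, which returns retinaldehyde to retinol and so limits the supply for the ALDH1A enzymes, rose in both populations. Probe A_23_P33759 read 0.40 and 0.50 in Control, 0.77 and 0.75 in BT474-Var1 and 1.91 and 1.997 in BT474-Var4. The populations did not overlap, and BT474-Var4 stood more than 1 log2 unit above the other 4 arrays. The rise was 1.51 in BT474-Var4 (SE 0.06, 95% interval 1.34 to 1.68, adjusted p = 0.0026), or 2.84-fold, and BT474-Var4 was 2.29-fold above BT474-Var1 (1.20, adjusted p = 0.0014). Both held without any single array. The rise of 0.31 in BT474-Var1 passed with all arrays (SE 0.06, adjusted p = 0.0251) and was lost without Control A, Control B, BT474-Var1 A or BT474-Var1 B (0.0651 to 0.110).

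CRABP2, the carrier that delivers retinoic acid to the receptors, rose in both populations too, but more in BT474-Var1. Probe A_23_P115064 read 2.06 and 2.05 in Control, 2.99 and 3.11 in BT474-Var1 and 2.40 and 2.51 in BT474-Var4. The populations did not overlap, with Control lowest and BT474-Var1 highest. The rise was 1.00 in BT474-Var1 (SE 0.07, 95% interval 0.81 to 1.18, adjusted p = 0.0038), and BT474-Var4 stood 0.60 below BT474-Var1 (adjusted p = 0.0057), and both calls held without any single array. The rise of 0.40 in BT474-Var4 (adjusted p = 0.0237) was lost without Control A, Control B, BT474-Var4 A or BT474-Var4 B (0.0601 to 0.108), and in the one-way analysis of variance (0.0520).

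The second CRABP2 probe did not follow. A_33_P3294826 (chr1:156675546-156675605, minus strand) was designed on another CRABP2 transcript than the first, from base 3 of it, and its 60 bases matched the RefSeq window from 29 bases before to 31 after a CRABP2 start site. It read -1.89 and -1.63 in Control, -1.67 and -2.05 in BT474-Var1 and -1.82 and -1.74 in BT474-Var4. The populations overlapped, and the differences of -0.10 (-0.53 to 0.34) and -0.02 (-0.45 to 0.42) did not pass (adjusted p = 0.679 and 0.944). The interval in BT474-Var1 lay below that of the first probe.

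CYP26A1, the hydroxylase that retinoic acid induces most strongly in many cells and whose promoter holds the DR5 printed above, was lower in BT474-Var1. Probe A_23_P138655 read -1.55 and -1.67 in Control, -2.77 and -2.42 in BT474-Var1 and -1.30 and -1.34 in BT474-Var4, well above background on all 6 arrays. The populations did not overlap, with BT474-Var1 lowest and BT474-Var4 highest. CYP26A1 fell by 0.99 in BT474-Var1 (SE 0.13, 95% interval -1.34 to -0.64, adjusted p = 0.0092). Without Control A the change was -0.92 and missed the threshold (adjusted p = 0.0557). The difference of 0.29 in BT474-Var4 did not pass (-0.07 to 0.64, adjusted p = 0.184). BT474-Var4 was 2.42-fold above BT474-Var1 (1.27, SE 0.13, adjusted p = 0.0042), and this held without any single array. With normexp, these differences were smaller but passed (-0.26 and 0.37 on the log2 scale).

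Its relative CYP26B1, which clears retinoic acid in many embryonic and adult tissues, was not detected. Probe A_23_P210109 (chr2:72357430-72357489, minus strand) read -6.15 and -6.42 in Control, -5.83 and -6.13 in BT474-Var1 and -6.11 and -5.51 in BT474-Var4, well above background on 0 arrays, so these values have no meaningful order.

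**Figure D4:**
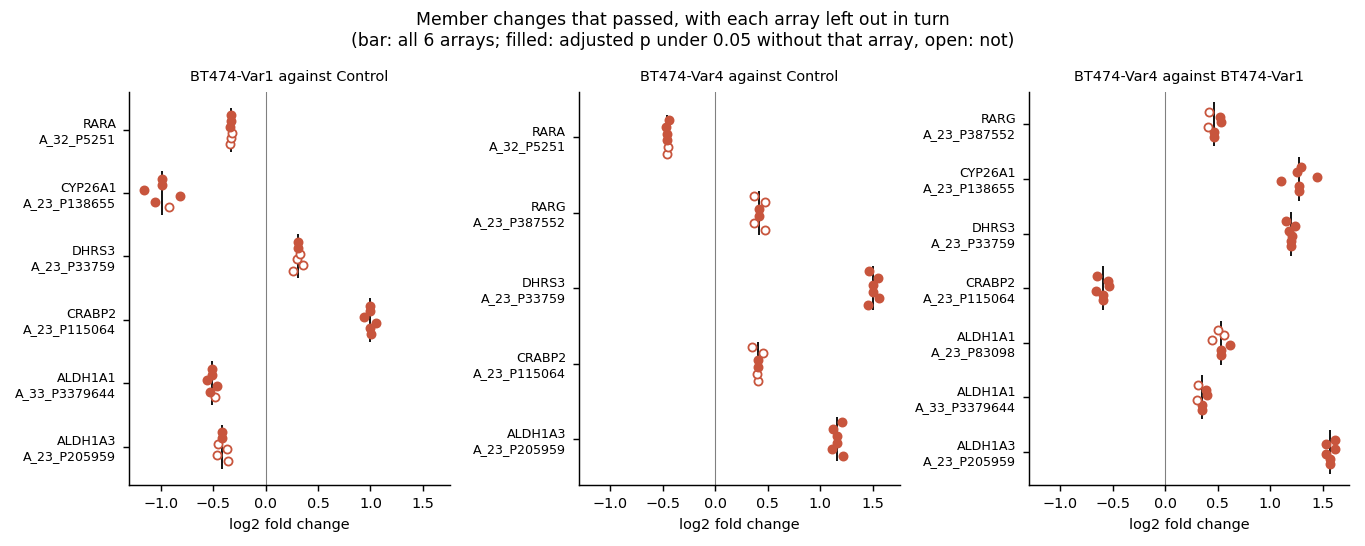
Log2 fold change of each member probe that passed, in each of the 3 comparisons, with 1 of the 6 arrays left out at a time (dots, 6 per probe, spread vertically for legibility) beside the value from all arrays (bar). Open dots had an adjusted p of 0.05 or more. The 1.51 of DHRS3 and the 1.16 of ALDH1A3 in BT474-Var4 and the 1.00 of CRABP2 in BT474-Var1 kept filled dots throughout, while RARG, and CRABP2 in BT474-Var4, did not.

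The rest of the pathway was described by lists of genes, with the brightest tested probe per gene. Over all 24619 tested genes, 14.2% rose and 20.7% fell in BT474-Var1, 10.2% rose and 14.6% fell in BT474-Var4, and 20.9% were higher and 21% lower in BT474-Var4 than in BT474-Var1. Of 6 other receptors, all tested, 3 rose in BT474-Var1 and 1 in BT474-Var4, with 0 falls. Of 3 tested genes of other synthesis and breakdown enzymes, of 5 on the array, 1 fell in BT474-Var1 and 2 rose in BT474-Var4. That 1 was CYP2S1, named after its values were seen, a P450 reported to oxidize retinoic acid: it fell by 0.90 in BT474-Var1 (adjusted p = 0.0037) and rose by 0.28 in BT474-Var4 (adjusted p = 0.0381).

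Of 15 tested genes, of 19 on the array, that interconvert retinol and retinaldehyde, 4 rose and 2 fell in BT474-Var1, 3 rose and 2 fell in BT474-Var4, and 4 were higher and 5 lower in BT474-Var4 than in BT474-Var1. RDH12, a retinaldehyde reductase best known from the retina, read -6.25 and -5.09 in Control, -2.19 and -2.15 in BT474-Var1 and -6.20 and -5.63 in BT474-Var4. It was well above background on the BT474-Var1 arrays alone, where it exceeded Control at least 4.63-fold. Those arrays alone brought RDH12 into the test, and limma's adjusted p of 0.0078 is that of the readings, not of the bound. DHRS9, a retinol dehydrogenase, read -3.57 and -3.43 in Control, -1.95 and -1.87 in BT474-Var1 and -3.73 and -3.46 in BT474-Var4. It also stood out in BT474-Var1, with a rise of 1.59 on the log2 scale (adjusted p = 0.0039), and differed by -0.10 in BT474-Var4 (adjusted p = 0.573). AKR1B10, an aldo-keto reductase of retinaldehyde, read -1.03 and -0.93 in Control, -0.60 and -0.74 in BT474-Var1 and 0.30 and 0.38 in BT474-Var4. It was highest in BT474-Var4, by 2.50-fold over Control (1.32, adjusted p = 0.0034). Its rise of 0.31 in BT474-Var1 (adjusted p = 0.0404) was lost under 11 alternatives, among them the fit of only the 2 groups compared (0.0669). With normexp the rises on the log2 scale were 0.45 for RDH12 and 0.38 for DHRS9 in BT474-Var1 and 0.81 for AKR1B10 in BT474-Var4, all past the threshold.

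Of 13 tested genes, of 16 on the array, that bind, take up or store retinoids, 2 rose and 4 fell in BT474-Var1, and 2 rose and 5 fell in BT474-Var4, with a median of -0.22 and -0.67 on the log2 scale against -0.05 and -0.08 over all tested genes. CD36, a scavenger receptor for lipids and carotenoids, read -4.95 and -5.07 in Control, -2.68 and -2.74 in BT474-Var1 and -5.71 and -5.70 in BT474-Var4. It was well above background on the BT474-Var1 arrays alone, at least 3.18-fold above Control. Those arrays alone brought CD36 into the test, and limma's adjusted p of 0.0018 is that of the readings, not of the bound. CD36 was also 1 of the 5 falls in BT474-Var4, between populations that were both below background there. STRA6, the cell surface receptor for the retinol carrier of the blood, read -4.60 and -4.48 in Control, -4.35 and -3.16 in BT474-Var1 and -2.81 and -2.73 in BT474-Var4. It was well above background on 0, 1 and 2 of these arrays with a gain over Control of at least 3.02-fold in the BT474-Var4 cells. STRA6 entered the test through the BT474-Var4 arrays alone, and its rise there passed on the readings, not on the bound (limma adjusted p = 0.0412). This call failed without Control A, Control B, BT474-Var4 A or BT474-Var4 B (0.125 to 0.154), and in the one-way analysis of variance (0.114). With normexp the log2 rises were 0.36 for CD36 in BT474-Var1 and 0.21 for STRA6 in BT474-Var4, both past the threshold. Of 18 tested coregulators of the receptors, of 19 on the array, 2 rose and 3 fell in BT474-Var1, and 1 rose and 1 fell in BT474-Var4, with 0 changes of 2-fold or more.

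Genes that retinoic acid is known to induce in one cell type or another formed the last list. Of 25 tested, of 38 on the array, 7 rose and 8 fell in BT474-Var1, 10 rose and 4 fell in BT474-Var4, and 12 were higher and 4 lower in BT474-Var4 than in BT474-Var1. The median log2 fold change was -0.22, 0.18 and 0.28, against -0.05, -0.08 and -0.03 over all tested genes. Many of these genes also answer to other signals, and the list is no measure of receptor activity.

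BHLHE40, a transcriptional repressor of the clock family, read -3.60 and -3.55 in Control, -0.43 and -0.24 in BT474-Var1 and -2.73 and -2.92 in BT474-Var4. It was highest in BT474-Var1, 9.45-fold over Control (3.24, adjusted p = 0.0020), and 1.68-fold over Control in BT474-Var4 (0.75, adjusted p = 0.0130), where the call was lost without Control A, Control B or BT474-Var4 A (0.0735, 0.0707 and 0.0517). RARRES1, named for its induction by a synthetic retinoid, read 0.47 and 0.52 in Control, 1.26 and 1.11 in BT474-Var1 and 1.79 and 1.79 in BT474-Var4. The populations did not overlap, with rises of 1.61-fold in BT474-Var1 (0.69, adjusted p = 0.0055) and 2.45-fold in BT474-Var4 (1.29, adjusted p = 0.0033).

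A pair of neighbouring homeobox genes of the HOXB cluster went down in BT474-Var4. HOXB5 read -2.92 and -3.09 in Control, -3.54 and -3.21 in BT474-Var1 and -4.52 and -4.40 in BT474-Var4, where it was not well above background and at least 1.86-fold lower than Control. Its limma adjusted p of 0.0068 is that of the readings, not of the bound. HOXB4 read -2.51 and -2.51 in Control, -2.84 and -2.71 in BT474-Var1 and -3.67 and -3.97 in BT474-Var4. It was lowest in BT474-Var4, where it fell by 1.31 (adjusted p = 0.0063). Its BT474-Var4 B reading lay below the dimmest signal that was well above background on that array (-3.60), so this fall was not fully measured. The HOXB4 difference of -0.26 in BT474-Var1 did not pass (adjusted p = 0.159). With normexp the log2 changes of the dim probes shrank, to 1.21 for BHLHE40 in BT474-Var1 and 0.17 in BT474-Var4, -0.27 for HOXB4 and -0.23 for HOXB5 in BT474-Var4, and all 4 passed.

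**Figure D5:**
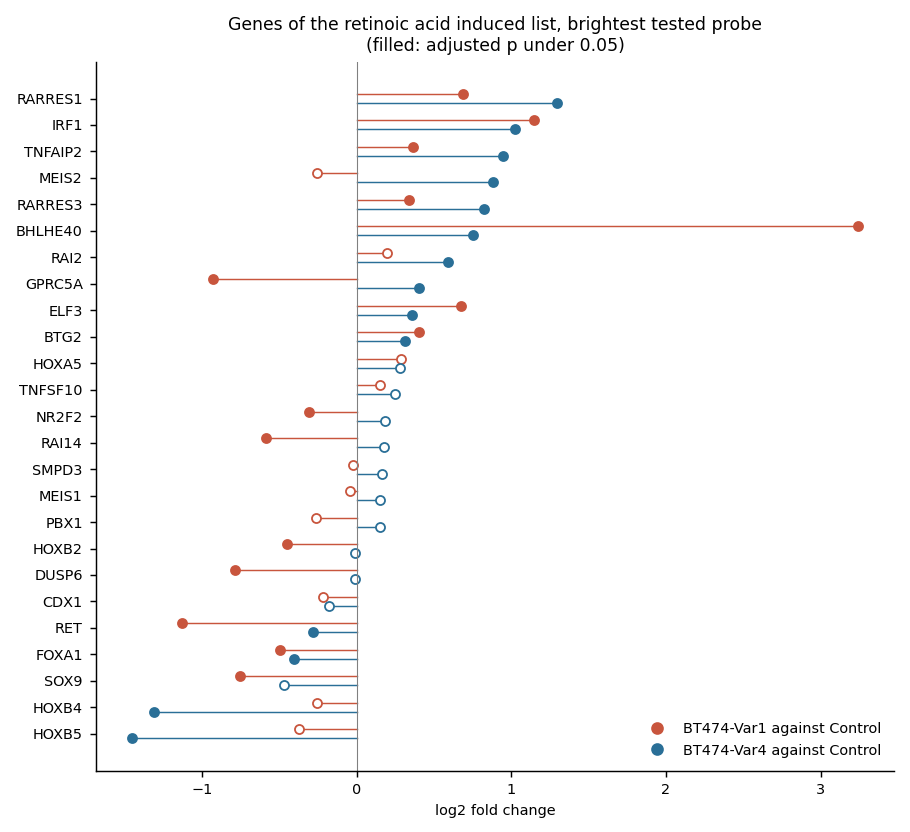
Log2 fold change against Control of the 25 tested genes of the retinoic acid induced list in BT474-Var1 (red) and BT474-Var4 (blue), brightest tested probe per gene, filled where limma's adjusted p was under 0.05. Genes are ordered by their value in BT474-Var4. BHLHE40 reaches 3.24 in BT474-Var1, RARRES1 leads in BT474-Var4 at 1.29, and HOXB5, not well above background in BT474-Var4, and HOXB4 stand lowest there. Both sets of values use the same Control arrays.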

How the data were processed

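Per the labels and the methods of the study, Cy3-labelled cRNA made from total RNA was run on one-color Agilent 60-mer arrays, which the authors read with Feature Extraction 11.5.1.1. The deposited intensity (the processed signal) is already background-subtracted, and the authors also deposited a log2 table shifted to the 75th percentile of each array, made with GeneSpring by the methods. Here outlier spots were removed, spots of a probe averaged, and log2 intensities shifted to each array's 75th percentile over non-control probes. The median difference from the authors' table was at most 0.00716 log2 units per array.

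A probe was well above background where at least 0.5 of its spots were. The 31858 probes that reached this on both arrays of a population, in 1 population or more, were fitted with limma 3.58.1 (R 4.3.3), with all 6 arrays sharing 1 estimate of the spread, and p-values were adjusted by Benjamini-Hochberg over all of them. With a population not well above background on either array, fold changes are lower bounds: the mean of the brighter population against, per array, the higher of the lowest signal among probes well above background and the dim probe's own value. The fit was checked on data simulated as independent noise with each probe's spread between arrays. Such data cannot show whether calls hold where replicates are technical or slide position matters. Settings varied were the background correction (normexp, offset 50), the normalization (quantile), the filter on dim probes, the authors' table, a replicate block, the moderation of variances, the methods' one-way analysis of variance, and each array left out. The members and the gene lists were chosen with earlier results of these data known. Other genes were named where the brightest tested probe passed with 2-fold or more in either variant against Control, at most 4 per list. A gene that this rule names is not reported here.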

Additional observations from a re-analysis of the deposited data

Results flagged for a closer look

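CYP26A1 (A_23_P138655), ALDH1A1 (A_23_P83098) and ALDH1A3 (A_23_P205959) were singled out because both BT474-Var1 arrays lay below both Control arrays, both BT474-Var4 arrays lay above them, and the difference between the 2 transfected populations passed. Pairs of populations did not overlap for 68.7% to 74.7% of all tested probes, and 41.2% passed between the 2 transfected populations. The share of all tested probes that meets the whole rule was not counted. The p-values that follow are those the rule used. On the log2 scale BT474-Var4 exceeded BT474-Var1 by 1.27 for CYP26A1, by 0.53 for ALDH1A1 and by 1.57 for ALDH1A3 (limma adjusted p = 0.0042, 0.0147 and 0.0012). The second ALDH1A1 probe, A_33_P3379644, lay below Control in both populations. So did A_21_P0008700, which carries the ALDH1A3 symbol but was designed on a noncoding transcript. It was well above background on 0 BT474-Var4 arrays. The adjusted p of the A_23_P83098 difference was 0.0563, 0.0550 and 0.0675 without BT474-Var1 B, BT474-Var4 A and BT474-Var4 B.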

How the results depend on the processing

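Of the calls on member probes, those of CRABP2 (A_23_P115064) in BT474-Var1, of DHRS3 and ALDH1A3 (A_23_P205959) in BT474-Var4, and of CYP26A1, DHRS3, ALDH1A3 (A_23_P205959) and CRABP2 (A_23_P115064) in BT474-Var4 against BT474-Var1 held without any single array. With each array left out in turn, the number of member probes that rose or fell was 1 to 2 and 0 to 4 in BT474-Var1, 2 to 4 and 0 to 2 in BT474-Var4, and 3 to 6 and 1 to 2 in BT474-Var4 against BT474-Var1. Without the filter on dim probes, which adds untestable probes to the adjustment and left 4.59%, 1.24% and 8.78% of probes past the threshold, 1 rose and 0 fell in BT474-Var1, 2 rose and 0 fell in BT474-Var4, and 3 were higher in BT474-Var4 compared with BT474-Var1. With any array left out, a smaller share of all tested probes passed than with all 6 arrays, in each comparison. The member counts with an array left out therefore cannot tell a change in the members from this general loss. The one-way analysis of variance gave 2 rises in BT474-Var4, where 16.3% of all tested probes passed in either direction. It, quantile normalization, and limma with trend and robust estimation each gave 2 lower probes in BT474-Var4 against BT474-Var1. In that comparison 31.3%, 38.3% and 49.5% of all tested probes passed in either direction. The fit of only the 2 groups compared gave 2 falls in BT474-Var4, beside 17.2% of all tested probes in either direction. The cause of these shifts was otherwise not tested.

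The letters A and B did not pair the arrays (correlations of the A minus B differences of -0.01, 0.05 and -0.02 over 31807 probes). With the letters as a replicate block, 2 member probes rose and 4 fell in BT474-Var1, 3 rose and 1 fell in BT474-Var4, and RARG lost its call there (adjusted p = 0.0590). Among the other genes named, STRA6 in BT474-Var4 (0.0539) and AKR1B10 in BT474-Var1 (0.0800) did so too. Over all tested probes the replicate block left 27.5%, 15.4% and 35% past the threshold.

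Signs turned only for differences that had not passed. Under quantile normalization these were RARG (0.038) and RXRA (0.033) in BT474-Var1, CRABP2 A_33_P3294826 (0.023) and DHRS9 (0.025) in BT474-Var4, and RXRA (-0.057) and ALDH1A3 A_21_P0008700 (0.38) in BT474-Var4 against BT474-Var1. With normexp they were CRABP2 A_33_P3294826 (0.023), ALDH1A3 A_21_P0008700 (0.056) and HOXB4 (0.000466) in BT474-Var1, and RARB A_33_P3305749 (-0.076) and CRABP2 A_33_P3294826 (-0.049) in BT474-Var4 against BT474-Var1. With single arrays left out, RARG ranged from -0.11 to 0.015 and CRABP2 A_33_P3294826 from -0.29 to 0.10 in BT474-Var1. In BT474-Var4, RARA A_23_P207842 ranged from -0.072 to 0.13, CRABP2 A_33_P3294826 from -0.15 to 0.11, RDH12 from -0.82 to 0.33 and DHRS9 from -0.24 to 0.040. In BT474-Var4 against BT474-Var1, CRABP2 A_33_P3294826 ranged from -0.11 to 0.27 and ALDH1A3 A_21_P0008700 from -0.49 to 0.34. Normexp with its added offset shrank the changes of dim probes, and probes not well above background, CYP26B1 among them, have no usable change.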
